A study of Mus musculus with 10 samples.

Results

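The genes described here take glucose into muscle, break it down to lactate and store it as glycogen. The list holds 38 genes, chosen by name from textbook pathways with earlier results of these data known. Of these, 35 had at least 1 probe set that the array's annotation gives to a single gene. The whole table held such probe sets for 18193 genes. Of the 35, 34 entered the comparison with 73 probe sets, and Gapdh was read from the 3 control probe sets of the array, since its 3 other probe sets name further genes too and were not used. Eno1, Gpi1 and Pfkfb1 had no such probe set and were not analysed here. None of the 73 probe sets passed the test between genotypes, which 0.191% of all probe sets did. The values of the groups overlapped for each of the 73, while 1.6% of all probe sets had no overlap.

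Glucose crosses the muscle membrane through the carriers Slc2a1 (GLUT1) and Slc2a4 (GLUT4). Insulin and contraction bring GLUT4 to the surface by switching off the Rab-inhibiting proteins Tbc1d1 and Tbc1d4, while Txnip restrains uptake. Hexokinase traps the sugar as glucose 6-phosphate, which runs down glycolysis to pyruvate and lactate or is built into glycogen by glycogenin and glycogen synthase. Muscle uses its own isoforms at several of these steps, and fasting is known to turn its fuel use from glucose toward fat.

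Expression was measured with an Affymetrix mouse genome array with 3′ probe sets in the gastrocnemius, a calf muscle. All mice were male, were 12 to 16 weeks old, were kept on chow and were fasted for 18 h before dissection. The 5 knockout arrays came from mice lacking Skn-1, also called Pou2f3, a transcription factor that tuft cells and some taste cells need, and the 5 wild-type arrays from mice labelled wild type. The labels give both groups a mixed background of 129 and C57BL/6J, and the line was backcrossed repeatedly to C57BL/6J. The deletion is described without a cell type, so the knockout was taken as one of the whole animal, and the labels call the arrays biological replicates. The comparison asks how the transcripts of fasted muscle differ when Skn-1 is missing.

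Several facts of the whole table bear on every value below. The deposited values, of which the lowest was 4.93, were read as log2, a base that no source used here states, so each fold rests on that reading. Array medians lay between 6.23 and 6.24. Of the 45037 probe sets 86.2% had a standard deviation (SD) over the 10 arrays of at most 0.01. These are called low-variation here, and the other 6209, with a median SD of 0.168, are called ordinary. The single Pou2f3 probe set was low-variation and stood at 6.47 in both groups (exact two-sided permutation p = 0.571, where the smallest possible is 0.0079), so it did not check the genotype labels. Muscle markers were present: of 7 listed genes, among them Acta1, Ckm and Myh4, all were measured, and their 12 probe sets averaged 11.48 to 11.56 in knockouts and 11.41 to 11.53 in wild types. Some arrays also carried markers of other tissues. The 13 probe sets of epidermis and hair summed to 77.74 to 94.30 in knockouts and 78.02 to 91.21 in wild types, highest in knockouts 1 and 4 and wild types 1 and 3. The genes of this list did not all rise in the same arrays. Krtdap stood at 8.83 and 9.06 in knockouts 1 and 4 and at 5.80 and 7.17 in wild types 1 and 3. Krt27 stood at 5.71 and 5.48 in those knockouts and at 9.35 and 8.34 in those wild types. Lymphocyte markers, 17 probe sets, summed to 101.79 to 117.14 in knockouts and 101.80 to 116.74 in wild types, highest in knockout 5 and wild type 3. Adipocyte markers, 7 probe sets, summed to 61.92 to 67.39 in knockouts and 60.46 to 67.97 in wild types, highest in wild type 3 and lowest in wild type 4. Of the 5 probe sets of liver markers 1, of Alb, varied, from 5.89 to 6.81 in knockouts and from 5.95 to 7.71 in wild types, highest in wild types 1 and 3. Fewer cells of a type and less RNA per cell cannot be told apart in such bulk tissue.

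Regulatory sequence upstream of the members is shown for 4 of them, each with a motif known from the control of glucose genes. RefSeq promoter windows (GRCm38.p6), 250 bases before to 50 after a transcription start, were found for 36 of the 38 members, 53 windows in all. Each motif was searched on both strands. The core of the hypoxia response element, ACGTG, was in 21 of the 53 windows (39.6%) and in 19.6% of all 32851 windows. The E-box CACGTG, which contains that core, was in 5 (9.43%) against 7.15%. GGGCGG, the GC box, was in 30 (56.6%) against 35.7%, CCAAT in 22 (41.5%) against 37.4%, and TATAAA in 4 (7.55%) against 13.6%. A pair of CACGAG boxes, one after the other with any 5 bases between them, was in 1 of all 32851 windows, that of Txnip, whose glucose-responsive element is known for such paired boxes. The 4 stretches below, of 150 bases, end at the base before the start, and capitals mark the motif. For Txnip they mark the pair, and for Hk2, Pgk1 and Ldha every ACGTG in either direction, in Ldha also the E-box. They lie at chr3:96557807-96557956 (plus strand), chr6:82774455-82774604 (minus strand), chrX:106186950-106187099 (plus strand) and chr7:46845654-46845803 (plus strand). A match is a description of letters, not of a factor bound in these muscles.
Txnip: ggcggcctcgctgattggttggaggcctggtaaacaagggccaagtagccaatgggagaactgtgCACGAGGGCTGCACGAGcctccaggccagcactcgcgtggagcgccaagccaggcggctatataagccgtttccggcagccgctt
Hk2: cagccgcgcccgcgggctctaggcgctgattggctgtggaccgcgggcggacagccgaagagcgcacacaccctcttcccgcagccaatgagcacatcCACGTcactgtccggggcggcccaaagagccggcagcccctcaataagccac
Pgk1: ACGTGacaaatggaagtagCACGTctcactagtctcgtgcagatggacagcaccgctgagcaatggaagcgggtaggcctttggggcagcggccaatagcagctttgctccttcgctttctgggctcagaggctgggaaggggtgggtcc
Ldha: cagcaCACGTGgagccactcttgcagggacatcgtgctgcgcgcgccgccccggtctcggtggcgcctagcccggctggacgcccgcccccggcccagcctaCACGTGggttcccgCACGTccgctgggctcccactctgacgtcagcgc

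The members varied across arrays more often than the table as a whole. Of their 73 probe sets 47, from 26 genes, were ordinary (64.4%), against 13.8% of all probe sets, and 26 were low-variation. In both, the share was lowest for dim probe sets and highest at levels from 10 to 12. At deposited levels from 8 to 10, 12 of 14 member probe sets were ordinary (85.7%) beside 57.4% of all, and from 10 to 12, 19 of 20 beside 81.4%. Between 12 and 14 the share was 10 of 13 (76.9%) beside 78.2%, and from 4 to 6 it was 0 of 5 beside 0.931%. Nearest to the limit were a Pfkl probe set with an SD of 0.000371 and an Aldoa probe set with 0.0567, so no member lay close to it on either side. At several steps the muscle isoform varied, though Slc2a1, which serves basal uptake, and Ldhb, typical of heart and slow muscle, had ordinary probe sets too. Hexokinase 2 (Hk2), muscle phosphofructokinase (Pfkm), Pgam2 and Eno3 were ordinary, while 8 genes had low-variation probe sets alone: Hk1, Pfkl, Pfkp, Aldoc, Pgam1, Gbe1, Ppp1r3a and Pgm2. Their SDs and those of the other low-variation probe sets ran from 5.14e-05 to 0.000371. Dim signal was not shared by all of them. Aldoa, the muscle aldolase, had 4 low-variation probe sets at means of 10.93 to 13.55 and 1 ordinary probe set at 12.87. A level on one probe set cannot be ranked against a level on another, because probes bind with different strength. Why values varied so little was not tested.

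**Figure D1:**
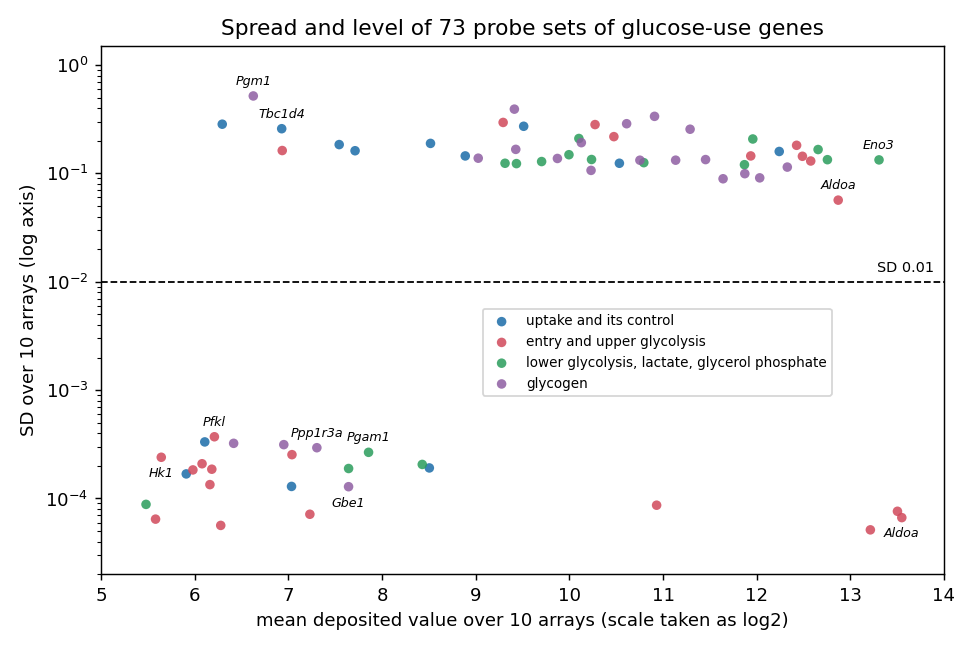
Each of the 73 probe sets is a point, with its mean deposited value over 10 arrays (scale taken as log2) on the x axis and its SD over the same arrays on the y axis, which is logarithmic. Colours mark the role of the gene and the dashed line an SD of 0.01; the 47 probe sets above it start at 0.0567 and the 26 below it end at 0.000371.

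No member differed between genotypes past the threshold, and the differences lay evenly around 0. With limma and Benjamini-Hochberg adjustment over all 45037 probe sets, 0 of the 73 passed 0.05 (smallest adjusted p = 0.556), while 86 of all probe sets did (0.191%). At an unadjusted p under 0.05 there were 2 member probe sets, beside 6.62% of all, and 1 of these, of Tbc1d4, was ordinary, beside 9.92% of all ordinary ones. The other, of Pfkp, was low-variation, and its difference is too small to be read as a change in RNA. Of the 47 ordinary member probe sets 24 were higher in knockouts and 23 lower, beside 49.2% higher among all ordinary ones. Their median difference, knockout minus wild type, was 0.0009, and that of all ordinary probe sets −0.0021. The 95% confidence intervals of the 47 differences ran at the extremes from −0.50 to 1.13, and at the median they reached 0.212 to either side, which is the precision for a typical member. Of the 13 genes with more than 1 ordinary probe set, 12 had all of them on the same side of 0. Such probe sets read the same RNA on the same arrays and are not independent, so this count is no sign of a genotype difference. Leaving out 1 array moved the difference of 43 of the 47 probe sets by over 1.5 times, and the other 4 were Tbc1d4 1455903_at, Tbc1d1 1419447_s_at, Gyg 1448429_at and Phkb. Where a difference lies near 0, as for Ldha (−0.0025), any small shift passes this factor. The count thus does not measure how heavily single arrays weighed.

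**Figure D2:**
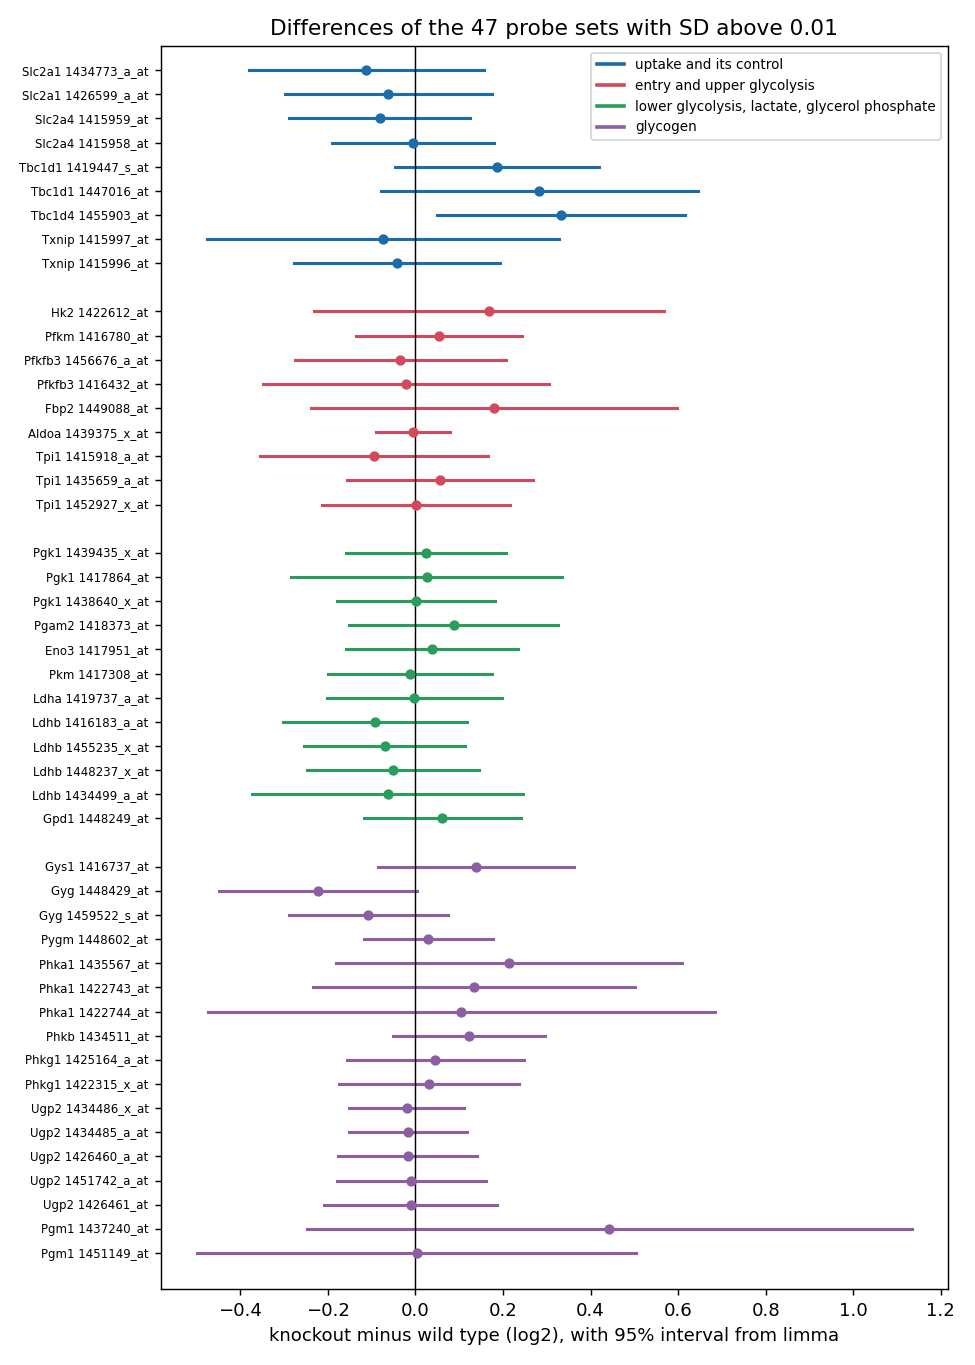
Points give knockout minus wild type (log2) for the 47 ordinary probe sets, named at the left and coloured by role, and lines give the 95% confidence interval from limma (n = 5 per group). Every interval but that of Tbc1d4, from 0.05 to 0.62, crosses 0.

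In the control of glucose uptake the one value that stood away from 0 belonged to Tbc1d4. Tbc1d4, also called AS160, holds GLUT4 vesicles inside the cell until Akt phosphorylates it. Its ordinary probe set 1455903_at stood at 7.52, 7.09, 6.88, 7.02 and 6.95 in knockouts 1 to 5 and at 6.89, 6.81, 6.71, 6.84 and 6.56 in wild types 1 to 5. All knockouts but the third lay above every wild-type array, and the highest value was that of knockout 1, an array with epidermis markers. The means were 7.09 ± 0.253 (SD, n = 5) and 6.76 ± 0.132 (SD, n = 5). This gave a difference of 0.33 ± 0.12 (SE), 1.26-fold, with a limma p of 0.0267 and an adjusted p of 0.653, so it did not pass. Without knockout 1 the difference was 0.22 (adjusted p = 0.565). Without the 5 arrays that carried markers of epidermis and hair or of lymphocytes it was 0.25 (adjusted p = 0.885). That fit kept only knockouts 2 and 3 and wild types 2, 4 and 5, so it had little power. The brighter Tbc1d4 probe set was low-variation, at 8.50. Among ordinary probe sets other than the brightest one of a gene, 14.6% reached an unadjusted p under 0.05 with the knockouts higher.

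Tbc1d1, the relative of Tbc1d4 that contraction and AMP-activated kinase act on, had a pair of ordinary probe sets, and both were higher in knockouts on average. For probe set 1419447_s_at knockouts 1 to 5 gave 7.34, 7.53, 7.88, 7.74 and 7.69, and wild types 1 to 5 gave 7.35, 7.40, 7.41, 7.63 and 7.46. Knockout 1 was the lowest of all 10 arrays, and knockouts 3, 4 and 5 were the 3 highest. The difference was 0.19 (95% interval −0.05 to 0.42; limma adjusted p = 0.860). Probe set 1447016_at read 6.06, 6.53, 6.28, 6.92 and 6.38 in knockouts and 6.30, 6.31, 6.06, 6.20 and 5.90 in wild types. Its difference was 0.28 (−0.08 to 0.64; adjusted p = 0.868), with knockout 4 highest and the groups overlapping, and it was 0.16 without knockout 4. Neither passed.

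Neither glucose carrier passed, and for GLUT4 the difference was small on its brighter probe set. Slc2a4, GLUT4, carries the glucose that insulin and contraction move into muscle. On its brighter probe set, 1415958_at, the 5 knockouts gave 10.37, 10.64, 10.56, 10.62 and 10.47 and the 5 wild types 10.47, 10.77, 10.39, 10.58 and 10.48. The means were 10.53 ± 0.111 and 10.54 ± 0.149 (SD, n = 5 each), a difference of −0.0058 with an interval from −0.19 to 0.18. The interval leaves room for a fold between 0.876 and 1.13. The second probe set, 1415959_at, gave 8.61, 8.79, 9.02, 8.95 and 8.87 against 8.73, 9.05, 8.98, 9.03 and 8.86, and its difference was −0.08 (−0.29 to 0.13). On both, knockout 1 was lowest and wild type 2 highest. Slc2a1, GLUT1, which serves basal uptake, read 8.62, 8.38, 8.62, 8.12 and 8.57 in knockouts and 8.40, 8.80, 8.59, 8.43 and 8.64 in wild types on probe set 1434773_a_at. Knockout 4 was lowest there and on 1426599_a_at, where knockouts gave 7.69, 7.64, 7.84, 7.46 and 7.78 and wild types 7.51, 7.93, 7.73, 7.61 and 7.94. The differences were −0.11 (−0.38 to 0.16) and −0.06 (−0.30 to 0.18), and neither passed (adjusted p = 0.964 and 0.986). Without knockout 4 they were −0.03 and −0.0074.

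Txnip, which restrains glucose uptake, showed its spread inside the wild-type group. On probe set 1415997_at knockouts gave 9.34, 9.56, 9.58, 9.47 and 9.42 and wild types 8.90, 9.70, 9.49, 9.82 and 9.84. The SD was 0.0986 in knockouts and 0.392 in wild types. Wild type 1 was the lowest array and wild type 5 the highest, and the same held for the brighter probe set, 1415996_at, with 12.29, 12.28, 12.25, 12.20 and 12.08 in knockouts and 11.90, 12.40, 12.22, 12.36 and 12.44 in wild types. The differences were −0.07 (−0.48 to 0.33) and −0.04 (−0.28 to 0.19). Single wild-type arrays moved them both ways. Without wild type 1 the first was −0.24 (limma adjusted p = 0.560) and the second −0.13 (adjusted p = 0.659). Without wild type 5 the first was −0.0013 and the second 0.00087, and without wild type 4 the first was −0.0059. Without the 5 marker-carrying arrays, which include wild type 1, they were −0.22 and −0.13 (adjusted p = 0.837 and 0.835), and neither passed. Of the 9 ordinary probe sets for uptake and its control, 3 were higher in knockouts and 6 lower.

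**Figure D3:**
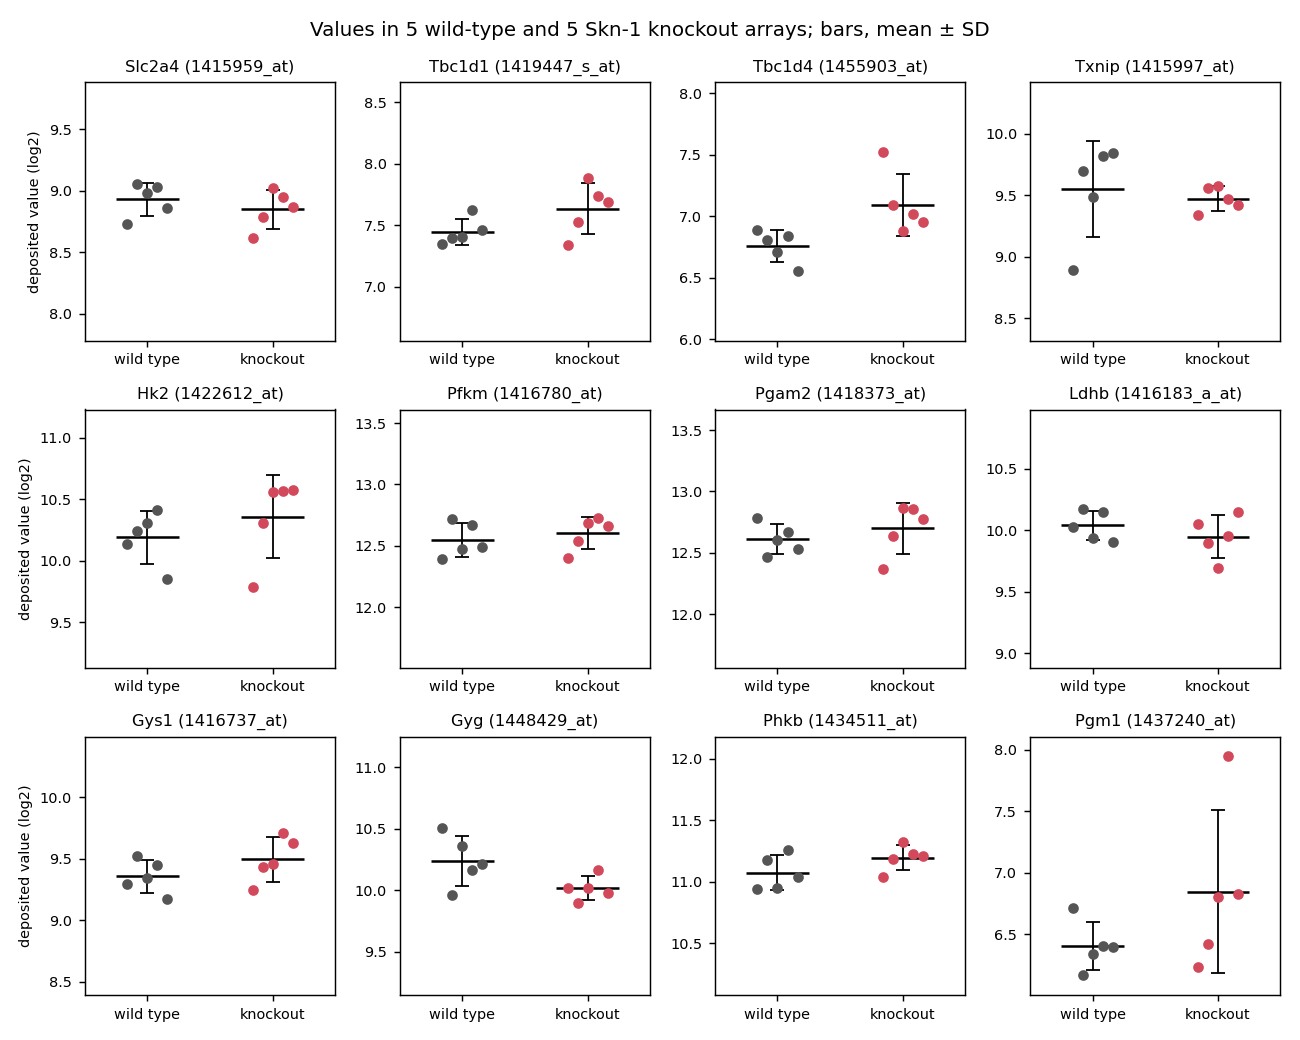
Each panel plots 1 member by its ordinary probe set with the smallest p, with the deposited value (scale taken as log2) of each array as a point and lines at the group mean ± SD (n = 5). The knockout and wild-type points overlap in every panel, and knockout 1 of Tbc1d4 (7.52) and knockout 4 of Pgm1 (7.95) stand above the rest.

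Entry into glycolysis and its upper steps gave 9 ordinary probe sets from 6 genes, 5 higher in knockouts and 4 lower, and none passed. Hk2, the hexokinase of insulin-responsive muscle, read 9.79, 10.30, 10.56, 10.57 and 10.57 in knockouts and 10.13, 10.24, 10.31, 10.41 and 9.85 in wild types. Knockout 1 was the lowest of all arrays while knockouts 3, 4 and 5 were the highest. The means were 10.36 ± 0.339 and 10.19 ± 0.215 (SD, n = 5 each), a difference of 0.17 (−0.23 to 0.57; limma adjusted p = 0.964). Leaving out 1 array gave 0.08 (without wild type 5) to 0.31 (without knockout 1, adjusted p = 0.650). Hk1 had a pair of low-variation probe sets. A further probe set that its annotation shares with other genes was not used, though it was not low-variation (mean 11.55, SD 0.170 over the 10 arrays).

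Fbp2, the muscle fructose bisphosphatase, works against the phosphofructokinase step. It read 8.95, 9.29, 9.73, 9.53 and 9.42 in knockouts and 8.71, 9.49, 9.17, 9.27 and 9.38 in wild types, with wild type 1 lowest and knockout 3 highest. The difference was 0.18 (−0.24 to 0.60), and leaving out 1 array gave 0.05 (without wild type 1) to 0.29 (without knockout 1). Pfkm, the muscle phosphofructokinase, read 12.41, 12.54, 12.69, 12.73 and 12.66 in knockouts and 12.39, 12.72, 12.47, 12.67 and 12.50 in wild types. Its groups lay over each other, at 12.60 ± 0.131 and 12.55 ± 0.138 (SD, n = 5 each), and the difference was 0.05 (−0.14 to 0.24). Pfkfb3, which makes the activator fructose 2,6-bisphosphate, gave 6.85, 6.88, 6.98, 6.97 and 6.90 against 6.59, 7.25, 6.95, 6.97 and 6.99 on probe set 1456676_a_at. Here too wild type 1 was lowest and wild type 2 highest, as on 1416432_at, whose values ran from 10.28 to 10.58 in knockouts and from 9.97 to 10.70 in wild types. The differences were −0.03 (−0.28 to 0.21) and −0.02 (−0.35 to 0.30).

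Aldolase and triose phosphate isomerase stood close in both groups. The ordinary Aldoa probe set ran from 12.80 to 12.95 in knockouts and from 12.78 to 12.92 in wild types, the narrowest spread of the ordinary members. Its difference was −0.0059, and its interval of −0.09 to 0.08 was the tightest of the 47. Tpi1, which interconverts the triose phosphates, was the one gene whose probe sets fell on both sides of 0. Probe set 1415918_a_at gave 12.03, 12.26, 12.70, 12.44 and 12.47 in knockouts and 12.38, 12.48, 12.43, 12.59 and 12.49 in wild types, a difference of −0.09 (−0.36 to 0.17). Probe set 1435659_a_at gave 11.68, 11.84, 12.19, 12.07 and 12.05 against 11.83, 11.91, 11.90, 12.00 and 11.90, a difference of 0.06 (−0.16 to 0.27). The brightest, 1452927_x_at, differed by 0.0009 (−0.21 to 0.22). On all 3 probe sets knockout 1 was lowest and knockout 3 highest, and the knockout SD, 0.204 to 0.250, exceeded the wild-type SD, 0.0575 to 0.0790.

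The lower steps and the exits to lactate and glycerol phosphate were split evenly, with 6 ordinary probe sets higher in knockouts and 6 lower, and no adjusted p under 0.909. Gapdh was read from the control probe sets at its 3′ end, middle and 5′ end. The 3′ values were 13.05, 13.10, 13.26, 13.22 and 13.12 in knockouts and 13.22, 13.19, 13.16, 13.18 and 13.22 in wild types. The difference was −0.04 (exact two-sided permutation p = 0.357, adjusted over the 3 probe sets 0.536), and it was −0.07 for the middle and −0.04 for the 5′ probe set, with adjusted p of 0.536 and 0.619 by the same exact test. Knockout 1 was lowest on all 3. The 3 are not independent, since they read parts of the same transcript.

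Pgk1, which makes the first ATP of the pathway, had 3 ordinary probe sets with differences of 0.02, 0.03 and 0.0015, and all of their intervals crossed 0. On the brightest, 1417864_at, knockouts gave 11.62, 11.82, 12.33, 12.05 and 12.05 and wild types 11.72, 12.09, 11.84, 12.06 and 12.01. The knockout arrays held both the lowest and the highest value. Pgam2, the muscle phosphoglycerate mutase, read 12.37, 12.64, 12.86, 12.86 and 12.77 in knockouts and 12.78, 12.46, 12.61, 12.67 and 12.53 in wild types, a difference of 0.09 (−0.15 to 0.33). Eno3, the muscle enolase, ran from 13.03 to 13.50 in knockouts and from 13.22 to 13.35 in wild types and differed by 0.04 (−0.16 to 0.23). Pkm, pyruvate kinase, read 10.62, 10.74, 10.87, 10.93 and 10.78 in knockouts and 10.69, 10.98, 10.64, 10.91 and 10.79 in wild types, and differed by −0.01 (−0.20 to 0.17). It is the only member on chromosome 9, the chromosome of Pou2f3, and lies 405 genes away from it.

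Lactate dehydrogenase is built from Ldha and Ldhb, the first typical of fast muscle and the second of heart and slow muscle. Ldha read 12.47, 12.67, 12.97, 12.87 and 12.80 in knockouts and 12.80, 12.69, 12.72, 12.79 and 12.78 in wild types. The difference was −0.0025 (−0.20 to 0.20), a fold between 0.869 and 1.15. Knockout 3 was its highest array and knockout 1 its lowest. The 4 Ldhb probe sets were lowest in knockout 3, and they differed by −0.05 to −0.09 between genotypes, all with intervals across 0. On 1416183_a_at knockouts gave 10.05, 9.90, 9.69, 9.95 and 10.15 and wild types 10.03, 10.18, 9.94, 10.15 and 9.91. On 1434499_a_at, the widest of them, knockouts gave 10.37, 10.05, 9.66, 10.07 and 10.20 and wild types 10.35, 10.21, 9.92, 10.18 and 10.02. Markers of slow fibres, 8 probe sets of 6 genes, were on average also lowest in knockout 3, with a mean deviation of −0.30. Their average was highest in wild type 2, at 0.35. The genes did not all share this: Myl2 and Myl3 were lowest in knockout 3, but Myh7, Tnnt1, Tnni1 and Tnnc1 in other arrays. Myh7 stood at 9.735 in knockout 3 and at 9.48 in wild type 5, its lowest array. The summed level of the 8 probe sets ran from 76.37 to 79.44 in knockouts and from 78.09 to 81.56 in wild types. The part of slow fibres in the Ldhb values was not tested. Gpd1, which makes glycerol 3-phosphate, read 9.19, 9.30, 9.52, 9.47 and 9.25 in knockouts and 9.25, 9.45, 9.21, 9.32 and 9.19 in wild types, a difference of 0.06 (−0.12 to 0.24).

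Among glycogen genes 17 probe sets of 8 genes were ordinary, 10 higher in knockouts and 7 lower, and none passed (smallest adjusted p = 0.762). Gyg, glycogenin, primes each new glycogen particle and was lower in knockouts on average. Probe set 1448429_at gave 10.02, 9.89, 10.02, 10.16 and 9.98 in knockouts and 10.51, 9.96, 10.36, 10.16 and 10.21 in wild types. Wild types 1 and 3 were the highest, and wild types 2 and 4 lay inside the knockout range. The means were 10.02 ± 0.0980 and 10.24 ± 0.206 (SD, n = 5 each), a difference of −0.22 ± 0.10 (SE), 0.857-fold, with a limma p of 0.0536 and an adjusted p of 0.762. Those 2 highest arrays carried markers of the epidermis and hair list, and without the 5 marker-carrying arrays the difference was −0.15 (adjusted p = 0.908). The brighter Gyg probe set, 1459522_s_at, gave 11.54, 11.35, 11.31, 11.49 and 11.31 against 11.75, 11.43, 11.54, 11.41 and 11.41, a difference of −0.11 (−0.29 to 0.07). Wild type 1 was again the highest array, with knockout 1 and wild type 3 next, and without wild type 1 the difference was −0.05.

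Gys1, muscle glycogen synthase, lengthens the chains that glycogenin starts. It read 9.25, 9.44, 9.46, 9.71 and 9.63 in knockouts and 9.30, 9.53, 9.34, 9.45 and 9.18 in wild types, a difference of 0.14 (−0.09 to 0.36; limma adjusted p = 0.931), which was 0.08 without knockout 4. Ugp2, which makes the UDP-glucose that it uses, had 5 ordinary probe sets, and these differed by −0.02 to −0.0097. On the brightest, 1451742_a_at, knockouts gave 12.18, 12.25, 12.33, 12.35 and 12.51 and wild types 12.22, 12.43, 12.25, 12.48 and 12.28. The groups covered the same range, and the interval ran from −0.18 to 0.16. The branching enzyme Gbe1 and the phosphatase targeting subunit Ppp1r3a were low-variation.

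Breakdown of glycogen runs through phosphorylase and its kinase. Pygm, muscle phosphorylase, read 11.79, 11.92, 11.93, 11.99 and 11.81 in knockouts and 11.86, 12.03, 11.70, 11.90 and 11.81 in wild types, and differed by 0.03 (−0.12 to 0.18). The ordinary probe sets of the listed phosphorylase kinase subunits were higher in knockouts on average, and none passed. Phka1, a regulatory subunit, had 3 ordinary probe sets with differences of 0.21, 0.13 and 0.10, and each was lowest in wild type 1 and highest in knockout 3. On 1435567_at knockouts gave 10.31, 10.58, 10.95, 10.86 and 10.89 and wild types 10.09, 10.78, 10.41, 10.79 and 10.45, with an interval from −0.18 to 0.61, and without wild type 1 the difference was 0.11. Phkb, another regulatory subunit, read 11.04, 11.18, 11.32, 11.22 and 11.21 in knockouts and 10.94, 11.18, 10.95, 11.26 and 11.04 in wild types, a difference of 0.12 (−0.05 to 0.29; adjusted p = 0.899). Phkg1, the catalytic subunit, differed by 0.05 and 0.03 on its pair of probe sets, both lowest in knockout 1 and highest in wild type 4.

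Pgm1, phosphoglucomutase, joins glycogen to glycolysis, and its dimmer probe set was the most variable of the members, with an SD of 0.518 over the 10 arrays. The brighter Pgm1 probe set had an SD of 0.336, below the 0.392 of Phka1 1422744_at. On the dimmer probe set 1437240_at knockouts gave 6.23, 6.42, 6.80, 7.95 and 6.83 and wild types 6.71, 6.17, 6.34, 6.41 and 6.39. Knockout 4, an array with epidermis markers, stood alone at the top. The difference of 0.44 was the largest of all members, yet its interval ran from −0.25 to 1.13 (limma adjusted p = 0.920), and the knockout SD was 0.665 beside 0.197 in wild types. Without knockout 4 the difference was 0.17, and leaving out 1 other array gave at most 0.60. The brighter probe set, 1451149_at, gave 10.20, 10.70, 11.41, 11.02 and 11.22 in knockouts and 10.71, 10.99, 10.94, 11.13 and 10.77 in wild types. There the difference was 0.0026 (−0.50 to 0.50), with knockout 1 lowest and knockout 3 highest. The probe sets thus disagreed on the size of the difference.

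Across arrays the members' values were uneven, and low and high arrays stood in both groups. To describe this, each gene's ordinary probe sets were set to their own mean over the 10 arrays, and the deviations were averaged over the 26 genes. The mean was −0.16, −0.03, 0.13, 0.13 and 0.06 in knockouts 1 to 5 and −0.12, 0.07, −0.08, 0.06 and −0.06 in wild types 1 to 5. Knockout 1 was the lowest array for 11 of the 26 genes and wild type 1 for 6, and 22 and 21 of the genes lay below their own mean there. Knockout 3 was the highest for 9, wild type 2 for 6 and knockout 4 for 5. Wild type 3 was lowest for only 2 genes but below the mean for 23.

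The pattern was not the same at every step. In knockout 1 the upper steps of glycolysis averaged −0.23, the lower steps −0.18 and glycogen −0.21, while uptake averaged 0.03. That uptake mean rested on Tbc1d4, at 0.60 in knockout 1. Slc2a4 and Tbc1d1 were both at −0.22 there, Txnip at −0.06 and Slc2a1 at 0.04. In wild type 1 the upper steps averaged −0.23, uptake −0.18 and glycogen −0.10, while the lower steps stood at −0.02. Ldhb went the other way in knockouts 1 and 3, at 0.14 and −0.32. Of the arrays with markers of the epidermis and hair list, knockout 1 and wild types 1 and 3 were low for the members and knockout 4 was high. Skeletal muscle markers deviated by −0.0037 in knockout 1, −0.10 in wild type 1, −0.12 in wild type 3 and 0.11 in knockout 3. The part of other tissues, fibre type or muscle RNA content in these deviations was not tested.

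**Figure D4:**
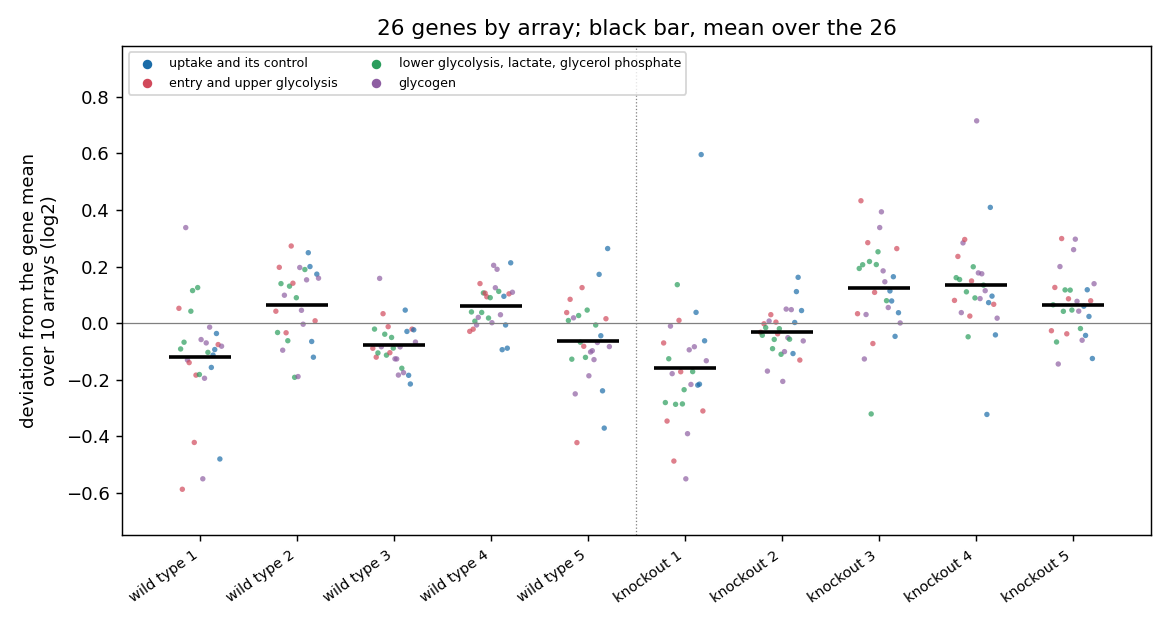
Each point is 1 of the 26 genes, coloured by role, with its deviation from its own mean over the 10 arrays (log2) on the y axis and the arrays on the x axis. Black bars are the mean over the 26 genes. Knockout 1 (−0.16) and wild type 1 (−0.12) are lowest over all genes, and knockouts 3 and 4 (both 0.13) are highest.

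The wider pathway was read from a further list of glucose transport, pyruvate, glycogen and signalling genes. This list was drawn up with earlier results of these data known, so its shares describe the list and are no test of the pathway. Of its 75 genes that are not members 69 were measured, with 141 probe sets, of which 58 from 35 genes were ordinary. Of these 58, 40 were higher in knockouts and 18 lower, beside 49.2% higher among all ordinary probe sets, and their median difference was 0.05. At an unadjusted limma p under 0.05, 9 were higher and 1 lower, beside 7.44% and 2.48% of all ordinary ones. The 9 belonged to Prkaa2, Dlat, Rab10 and Prkab2, each with more than 1 probe set, and to Slc37a4. The lower probe set was also of Dlat. Probe sets of the same gene are not independent, so the 9 are not as many separate genes. One probe set passed the adjusted threshold (0.191% of all probe sets did). It belonged to Hif1a, the oxygen-regulated factor that binds the ACGTG core (adjusted p = 0.0458), and it was low-variation, so no size of the difference is given. Of the 3 other Hif1a probe sets, also low-variation, 1 lay in the same direction and 2, the brightest among them, in the other. Without the marker-carrying arrays 0 of all probe sets passed (2672 had an unadjusted p under 0.05), that of Hif1a included. Only knockouts 2 and 3 and wild types 2, 4 and 5 were left in that fit. With so few arrays the 0 does not show how much the marker-carrying arrays weighed.

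The ordinary probe sets with the smallest p are named after their values were seen, and none passed. Prkaa2 encodes the catalytic subunit of AMP-activated kinase that prevails in muscle and acts on Tbc1d1. Its probe set 1429464_at gave 8.93, 8.57, 8.77, 8.69 and 8.62 in knockouts and 8.38, 8.28, 8.05, 8.29 and 8.11 in wild types. The groups did not overlap, which 3.96% of all ordinary probe sets showed, and the difference was 0.50 ± 0.09 (SE; limma adjusted p = 0.0936). On 1429463_at it was 0.29 (adjusted p = 0.176), again without overlap, but on the brightest Prkaa2 probe set it was 0.11 (unadjusted p = 0.0999). Prkab2, a further subunit of that kinase, differed by 0.22 and 0.21 on a pair of probe sets (adjusted p = 0.608 and 0.617). Rab10, a small GTPase that Tbc1d4 can act on, differed by 0.28 and 0.18 (adjusted p = 0.277 and 0.676). A further ordinary Rab10 probe set, 1422664_at, differed by 0.10 (adjusted p = 0.908), and knockout 1 was its lowest array. Slc37a4, the glucose 6-phosphate transporter, differed by 0.58 (adjusted p = 0.171). Dlat, of pyruvate dehydrogenase, differed by 0.39, 0.33 and −0.28 on 3 probe sets, so its probe sets did not share a direction. Slc37a4 and Dlat lie on chromosome 9, 42 and 191 genes away from Pou2f3.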

How the data were processed

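The 10 arrays were grouped by the genotype in their labels. The authors deposited 1 table of processed values per probe set; the values were read as log2 expression from their range, since the deposited table states neither scale nor base, and the normalization is not given in the sources used here. From 45101 probe sets 64 controls were left out. Gene names came from the platform annotation, updated through a RefSeq gene table (GRCm38.p6). Of the 45037 probe sets 34945 had 1 gene (34741 matched the gene table), 932 had several and 9160 were unnamed. The members, lists and tests were chosen with earlier results of these data known.

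The genotype test used limma 3.58.1 (R 4.3.3), with lmFit and with eBayes without trend, on the deposited values, with Benjamini-Hochberg adjustment at 0.05 over all 45037 probe sets. The fit was tested on simulated data. For Pou2f3 and Gapdh an exact two-sided permutation test was run with scipy 1.17.1. The number of arrays limits the precision, and p-values measure only the spread between these 5 arrays a group, which may be technical in part. Ordinary probe sets had an SD over the 10 arrays above 0.01. In each role the 6 ordinary probe sets with the smallest p had the value of every array printed; some others were added after their values were seen. Alternatives covered normalization, filters, variance moderation, array weights, the replicate block, the unit of adjustment and each array left out. After seeing the data, 1 alternative was added, without the 5 arrays whose markers of epidermis and hair or of lymphocytes deviated by over 0.5. It kept knockouts 2 and 3 and wild types 2, 4 and 5. Tables and plots were made with matplotlib 3.10.9, numpy 2.4.6 and pandas 2.3.3 under Python 3.11.15.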

Additional observations from a re-analysis of the deposited data

How the results depend on the processing

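Under all 20 alternatives 0 member probe sets passed the adjusted threshold by limma (smallest adjusted p = 0.312, for Tbc1d4 among ordinary probe sets alone). At an unadjusted p under 0.05 the count was 2, and it was 1 after quantile normalization, 1 among probe sets above the median level, 4 with array weights, 0 over genes by their brightest probe set and 5 without the 5 marker-carrying arrays (added after seeing the data). Leaving out 1 array gave 1 to 5, with 5 without knockout 1. Over all probe sets, 86 passed in the main fit. The count was 43 after quantile normalization, 143 among ordinary ones alone, 5 with the replicate block and 5 over genes. Without the marker-carrying arrays 0 passed (2672 at an unadjusted p under 0.05), and 31 to 57 did with 1 array left out. Fits with fewer arrays have less power, most of all the one left with knockouts 2 and 3 and wild types 2, 4 and 5. Centring arrays on their medians left 672 probe sets at an unadjusted p under 0.05 and quantile normalization 661, where the deposited values gave 2980; these scalings move low-variation probe sets by more than their own spread.

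The replicate numbers were not taken as pairs: same-numbered arrays deviated together in pairs 1 and 2 (correlations 0.25 and 0.32) but not in pairs 3, 4 and 5 (−0.40, 0.02 and −0.14), and only in pairs 1 and 2 did each array match its own number best. With the replicate block 3 member probe sets had an unadjusted p under 0.05 and none passed.

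Of 58 named probe sets, 25 changed sign under some alternative, none of them with a difference over 0.105. With array weights this held for Slc2a4 1415958_at (0.0195), Aldoa (0.01002), Pkm (0.00428), Ldha (0.0261), Ugp2 1426460_a_at (0.00892) and Ugp2 1426461_at (0.0246). After quantile normalization it held for Ldha (0.00585), Ugp2 1451742_a_at (0.000620) and Pgm1 1451149_at (−0.000747). Without the marker-carrying arrays it held for Pfkm (−0.0153), Pgk1 1439435_x_at (−0.0183), Pgk1 1438640_x_at (−0.00889), Ldha (0.0630) and Phka1 1422744_at (−0.0122). The cause was not tested. Leaving out 1 array gave these ranges for those that changed sign. In uptake they were −0.0438 to 0.0529 for Slc2a4 1415958_at and −0.135 to 0.000865 for Txnip 1415996_at. In the upper steps they were −0.125 to 0.0398 for Pfkfb3 1456676_a_at, −0.150 to 0.0330 for Pfkfb3 1416432_at, −0.0288 to 0.0108 for Aldoa, −0.000354 to 0.128 for Tpi1 1435659_a_at and −0.0650 to 0.0694 for Tpi1 1452927_x_at. In the lower steps they were −0.0199 to 0.0685 for Pgk1 1439435_x_at, −0.0632 to 0.113 for Pgk1 1417864_at, −0.0481 to 0.0527 for Pgk1 1438640_x_at, −0.00516 to 0.113 for Eno3, −0.0546 to 0.0326 for Pkm, −0.0573 to 0.0689 for Ldha, −0.0945 to 0.00997 for Ldhb 1448237_x_at and −0.138 to 0.0382 for Ldhb 1434499_a_at. Among glycogen genes they were −0.0103 to 0.0717 for Pygm, −0.0521 to 0.251 for Phka1 1422744_at, −0.0125 to 0.0869 for Phkg1 1422315_x_at, −0.0566 to 0.00852 for Ugp2 1434486_x_at, −0.0550 to 0.0112 for Ugp2 1434485_a_at, −0.0493 to 0.0319 for Ugp2 1426460_a_at, −0.0566 to 0.0269 for Ugp2 1451742_a_at, −0.0502 to 0.0476 for Ugp2 1426461_at and −0.121 to 0.179 for Pgm1 1451149_at. Among ordinary probe sets alone, Prkaa2 1429464_at (adjusted p = 0.0153), Slc37a4 (0.0274) and Dlat 1426264_at (0.0425) passed, as did Prkaa2 1429463_at without wild type 4 (0.0312).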
